A study of Homo sapiens with 6 samples.

Results

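A set of 10 genes of the nuclear mRNA export route was followed through 6 RNA-seq libraries of SW480 cells, out of 28307 gene symbols in the deposited gene tables. They were chosen by name and not by a cut on a measured value, but with earlier results of these data known. Of these, 6 code for subunits of the THO complex (THOC1, THOC2, THOC3, THOC5, THOC6 and THOC7), and the others were ALYREF, DDX39B, NXF1 and NXT1. SW480 is an established human colon adenocarcinoma line. The control group (Clover, n = 3) carried a lentiviral pLENTI CMV construct for the fluorescent protein Clover, and the Z18trunc group (n = 3) carried the same kind of construct for a truncated form of ZC3H18, a nuclear RNA surveillance factor. Both groups went through transduction and puromycin selection, and both kept their endogenous ZC3H18. The CMV promoter drives each transgene at a level set by the construct and not by the native locus. The lines were made in biological triplicate according to the methods of the study, which compared them to ask whether the truncated factor changes RNA from endogenous retroviruses. RNA was selected for poly(A) tails, so RNA without a tail was measured poorly or not at all. SW480 is 1 line, and the results describe that line only.

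TREX, the transcription-export complex, joins transcription and splicing of an mRNA to its export. The THO complex is its core, the helicase DDX39B (UAP56) loads onto RNA with it, and the adaptor ALYREF then helps to hand the RNA to the receptor NXF1, which crosses the nuclear pore as a heterodimer with NXT1. ZC3H18 binds capped nuclear RNA together with the cap-binding complex and takes part in decay of nuclear RNA, and export factors are recruited to the same capped RNAs.

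The labels were first checked with the perturbed gene. ZC3H18 was at 58.4, 51.3 and 61.8 TPM (a level per transcript length, on a scale on which each library sums to 1000000) in Clover replicates 1 to 3 and at 752, 739 and 798 TPM in Z18trunc replicates 1 to 3. The 2 groups did not overlap, and the transgene and the endogenous gene were not separated in these values. Aligned fragments ranged from 18226033 to 22463310 per library. Of 8 markers of a colon epithelial line, EPCAM, CDH1, KRT8, KRT18, CDX2 and VIL1 were at 10.1 TPM or more in every library, whereas KRT20 was at 0 in all 6 and LGALS4 reached at most 0.106 TPM. Among markers of other cell types, PTPRC (leukocytes), PECAM1 (endothelium) and MLANA (melanocytes) were at 0 throughout, COL1A2 reached at most 0.0546 TPM, and COL1A1 (fibroblasts) was between 1.14 and 1.55 TPM.

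Promoter sequence of the members was read, and a short motif near the start was then seen in the 4 most abundant members. It was also seen in THOC5, at rank 7 by level. RefSeq windows of 300 bases (GRCh38.p14, 250 bases before to 50 after the gene start) were found for 9 of the 10 members, all but THOC7. The letters CCGGAAG, 1 form of the site that ETS family transcription factors are known to bind, were searched on both strands (CTTCCGG on the other strand). Other forms of that site were not searched. They occurred in the windows of 5 members, DDX39B, ALYREF, NXT1, THOC3 and THOC5, that is 55.6% of 9, against 12.2% of 27305 genes with a window and 22.7% of the 10069 tested genes with a window. This motif was picked after the sequences had been seen, so the shares are a description. The 4 windows of the most abundant members are printed 5′ to 3′ on the strand of the gene, in lower case with the motif in capitals. They lie at chr6:31541954-31542253 on the minus strand for DDX39B, at chr17:81891537-81891836 on the minus strand for ALYREF, at chr20:23350541-23350840 on the plus strand for NXT1 and at chr5:175968266-175968565 on the minus strand for THOC3. For ALYREF, which has more than 1 listed start, 1 window is shown.
DDX39B: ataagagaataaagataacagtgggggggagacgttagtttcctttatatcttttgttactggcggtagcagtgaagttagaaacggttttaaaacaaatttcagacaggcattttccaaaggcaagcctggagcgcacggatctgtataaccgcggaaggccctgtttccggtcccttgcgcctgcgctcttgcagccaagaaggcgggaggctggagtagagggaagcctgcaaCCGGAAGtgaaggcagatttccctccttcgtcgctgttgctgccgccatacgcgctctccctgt
ALYREF: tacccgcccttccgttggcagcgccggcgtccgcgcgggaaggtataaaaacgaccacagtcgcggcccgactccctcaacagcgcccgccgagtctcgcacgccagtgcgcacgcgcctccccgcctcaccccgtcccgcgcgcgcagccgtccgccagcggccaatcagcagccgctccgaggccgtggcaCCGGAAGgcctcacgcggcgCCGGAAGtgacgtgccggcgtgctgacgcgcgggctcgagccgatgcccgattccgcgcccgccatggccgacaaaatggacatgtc
NXT1: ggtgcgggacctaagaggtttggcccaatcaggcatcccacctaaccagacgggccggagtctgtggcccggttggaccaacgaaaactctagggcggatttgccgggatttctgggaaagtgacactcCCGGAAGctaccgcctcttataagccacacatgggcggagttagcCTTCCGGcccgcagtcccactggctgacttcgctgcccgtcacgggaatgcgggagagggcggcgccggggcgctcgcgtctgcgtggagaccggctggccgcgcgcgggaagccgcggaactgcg
THOC3: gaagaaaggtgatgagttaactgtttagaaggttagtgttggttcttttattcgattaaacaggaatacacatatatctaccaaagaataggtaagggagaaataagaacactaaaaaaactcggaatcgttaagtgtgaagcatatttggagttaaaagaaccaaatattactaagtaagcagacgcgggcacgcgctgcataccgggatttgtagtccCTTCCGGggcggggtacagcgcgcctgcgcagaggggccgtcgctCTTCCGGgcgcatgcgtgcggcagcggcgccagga
In DDX39B the middle of the motif lies 11 bases before the start, and in ALYREF there are 2 copies, with middles 54 and 34 bases before it. NXT1 carries 1 copy on each strand, 118 and 73 bases before the start. THOC3 has both copies on the other strand, 27 bases before the start and 18 bases after it.

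Levels were ranked within the Clover libraries first. DDX39B, the helicase, was the most abundant member at 412 ± 22.8 TPM (SD, n = 3), followed by the adaptor ALYREF at 284 ± 17.3 TPM (SD, n = 3) and by NXT1, the small partner of the export receptor, at 140 ± 4.43 TPM (SD, n = 3). THOC3 at 120 ± 7.95 TPM, NXF1 at 75.0 ± 1.30 TPM, THOC7 at 69.2 ± 7.77 TPM, THOC5 at 52.7 ± 4.85 TPM and THOC6 at 43.5 ± 2.19 TPM came next (SD, n = 3 each). The lowest were THOC1 at 14.9 ± 1.54 TPM and THOC2, the large scaffold subunit, at 10.2 ± 0.788 TPM (SD, n = 3 each). Among neighbours in this order only NXF1 and THOC7 overlapped in Clover. The members therefore covered a wide range, and THO subunits were not at one level, with THOC3 above THOC1 and THOC2 in every library. The Z18trunc libraries gave the same order of means, from DDX39B at 420 ± 9.49 TPM to THOC2 at 13.3 ± 3.94 TPM (SD, n = 3 each), and there 4 pairs of neighbours overlapped, NXT1 with THOC3, NXF1 with THOC7, THOC5 with THOC6 and THOC1 with THOC2.

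**Figure D1:**
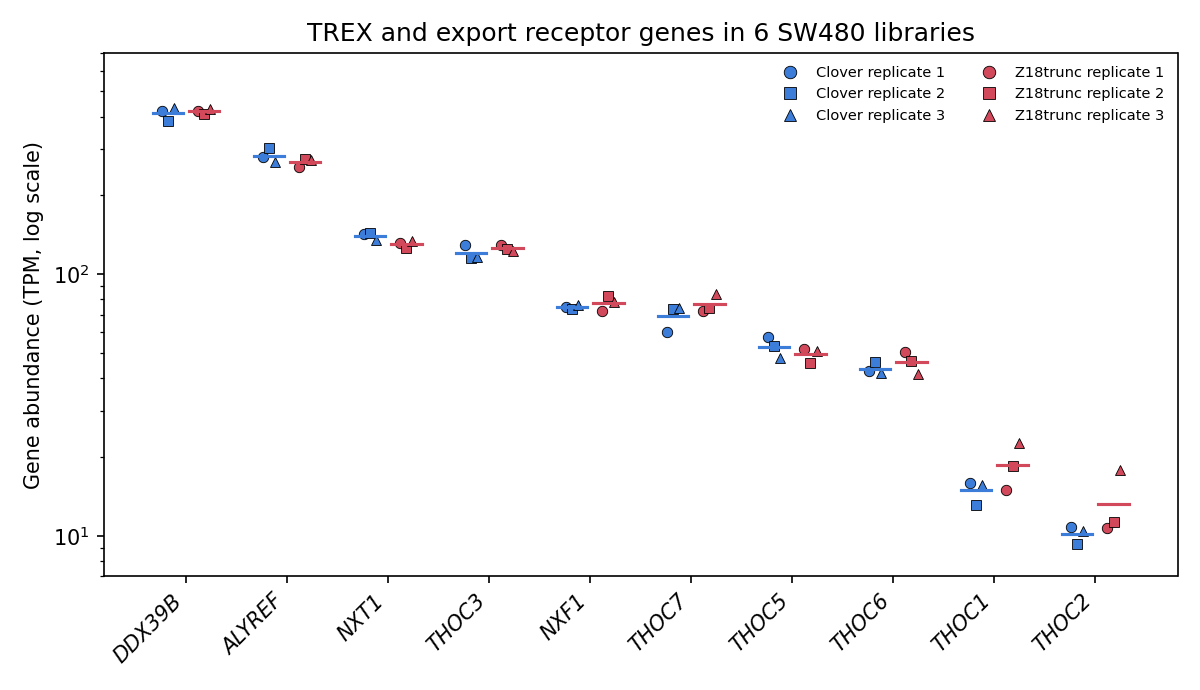
Abundance of the 10 members in TPM on a log axis, ordered by their mean over the 6 libraries. Points are single libraries, blue for Clover and red for Z18trunc, with the symbol giving the replicate, and bars are group means. The order from DDX39B to THOC2 is the same in both groups, and Z18trunc replicate 3 gives the highest points of THOC1 and THOC2.

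Each member was next compared between Z18trunc and Clover on log2(TPM + 1) in a limma fit over the 13300 genes with a mean of at least 1 TPM, which all 10 members passed. None of the 10 members passed an adjusted p of 0.05, against 0.0150% of all genes tested (2 of 13300). None reached an unadjusted p under 0.05 either, whereas 25.6% of all genes did so with higher and 2.90% with lower values in Z18trunc. The median log2 change of the 10 members was 0.05, with 7 above 0 and 3 below, and that of all genes tested was 0.11. After quantile normalization these medians were 0.01 for the members and -0.01 for all genes. No member had all 3 Z18trunc libraries above all 3 Clover libraries, which 30.1% of all genes tested did, and 1 member, NXT1, had all 3 below, which 6.73% did.

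Among the THO subunits, THOC2 and THOC1 had the largest log2 changes and the lowest levels. THOC2 (chromosome X, 123600570 to 123733052, hg38 as in the deposited tables) was at 10.8, 9.28 and 10.5 TPM in Clover and at 10.7, 11.3 and 17.8 TPM in Z18trunc. The groups overlapped, and Z18trunc replicate 3 stood above the other 5 libraries. The log2 change was 0.32 (95% interval -0.12 to 0.76, limma adjusted p = 0.298), and 0.10 without Z18trunc replicate 3. THOC1 (chromosome 18, 214520 to 268047) was at 15.9, 13.1 and 15.7 TPM in Clover and at 14.9, 18.4 and 22.7 TPM in Z18trunc. Replicate 3 was again the highest, while Z18trunc replicate 1 lay inside the Clover range. Its log2 change was 0.29 (95% interval -0.08 to 0.66, limma adjusted p = 0.268), and 0.15 without Z18trunc replicate 3. After quantile normalization the log2 changes of THOC2 and THOC1 were 0.14 and 0.13.

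The other 4 THO subunits were closer to no change. THOC7 (chromosome 3, 63833870 to 63863923) was at 60.2, 73.3 and 74.1 TPM in Clover and at 72.3, 74.5 and 84.1 TPM in Z18trunc, with a log2 change of 0.15 (95% interval -0.10 to 0.41, limma adjusted p = 0.389). The low value of Clover replicate 1 stood apart from an otherwise overlapping set, and the log2 change was 0.06 without that library. THOC6 (chromosome 16, 3024035 to 3027750), a WD-repeat subunit, was at 42.6, 46.0 and 41.9 TPM in Clover and at 50.5, 46.6 and 41.4 TPM in Z18trunc, which held both the highest and the lowest value of the 6. Its log2 change was 0.08 (95% interval -0.14 to 0.30, limma adjusted p = 0.611). THOC3 (chromosome 5, 175959531 to 175968315), also a WD-repeat subunit, was at 129, 115 and 116 TPM in Clover and at 129, 124 and 123 TPM in Z18trunc, with a log2 change of 0.06 (95% interval -0.12 to 0.25, limma adjusted p = 0.625). The highest library of each group was replicate 1, and the 2 were within rounding of each other. THOC3 has a transcribed pseudogene, LOC728554, elsewhere on the chromosome, at 86.7 to 96.3 TPM, and how reads common to both were divided is not given in the sources used here, so both levels are uncertain. THOC5 (chromosome 22, 29505879 to 29553757) was the only THO subunit with a negative log2 change. It was at 57.4, 53.1 and 47.7 TPM in Clover and at 51.7, 45.6 and 51.0 TPM in Z18trunc, overlapping, with a log2 change of -0.09 (95% interval -0.32 to 0.14, limma adjusted p = 0.581). Summed, the 6 THO subunits were at 316, 310 and 306 TPM in Clover and at 330, 321 and 340 TPM in Z18trunc. The 2 sets of sums did not overlap, and their means differed by 6.21%, although each of the 6 overlapped between groups on its own. Taken singly, all genes tested had a median log2 change of 0.11, and 30.1% of them had all 3 Z18trunc libraries higher. Such values of single genes are not a reference for a sum. The sum is a description without a test, and most of it is THOC3, THOC7, THOC5 and THOC6. Leaving out 1 library at a time gave log2 changes from 0.03 to 0.12 for THOC3, from 0.015 to 0.15 for THOC6 and from -0.16 to -0.03 for THOC5.

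The helicase and the adaptor were the 2 most abundant members, and neither passed the test. DDX39B (chromosome 6, 31530226 to 31542003) was at 419, 386 and 430 TPM in Clover and at 421, 410 and 429 TPM in Z18trunc. The Z18trunc values lay wholly inside the Clover range. The log2 change was 0.03, and the 95% interval of the fold ran from 0.905 to 1.15 (limma adjusted p = 0.821), on the scale of TPM + 1. Without Clover replicate 2 the sign of the log2 change was negative, at -0.02. A readthrough transcript, ATP6V1G2-DDX39B, overlaps the gene on the same strand and was listed at 1.02 to 1.81 TPM. ALYREF (chromosome 17, 81887835 to 81891587) was at 281, 302 and 268 TPM in Clover and at 257, 276 and 272 TPM in Z18trunc. The groups overlapped, with the lowest library in Z18trunc and the highest in Clover. Its log2 change was -0.08, with a fold interval of 0.834 to 1.08 (limma adjusted p = 0.547).

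The receptor and its partner had log2 changes of opposite sign, and neither passed the test. NXF1 (chromosome 11, 62792130 to 62805440) was at 75.0, 73.8 and 76.4 TPM in Clover and at 72.1, 82.2 and 78.2 TPM in Z18trunc, a group that spread to both sides of the controls. Its log2 change was 0.04, with a fold interval of 0.910 to 1.17 (limma adjusted p = 0.735), and it was -0.02 after quantile normalization. NXT1 (chromosome 20, 23350791 to 23354771) was at 142, 144 and 135 TPM in Clover and at 131, 126 and 134 TPM in Z18trunc. Here every Z18trunc library lay below every Clover library, by a narrow gap between Clover replicate 3 and Z18trunc replicate 3. The log2 change was -0.11, with a fold interval of 0.829 to 1.04 (limma adjusted p = 0.342), and it stayed negative in all 16 settings run, from -0.27 to -0.08.

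**Figure D2:**
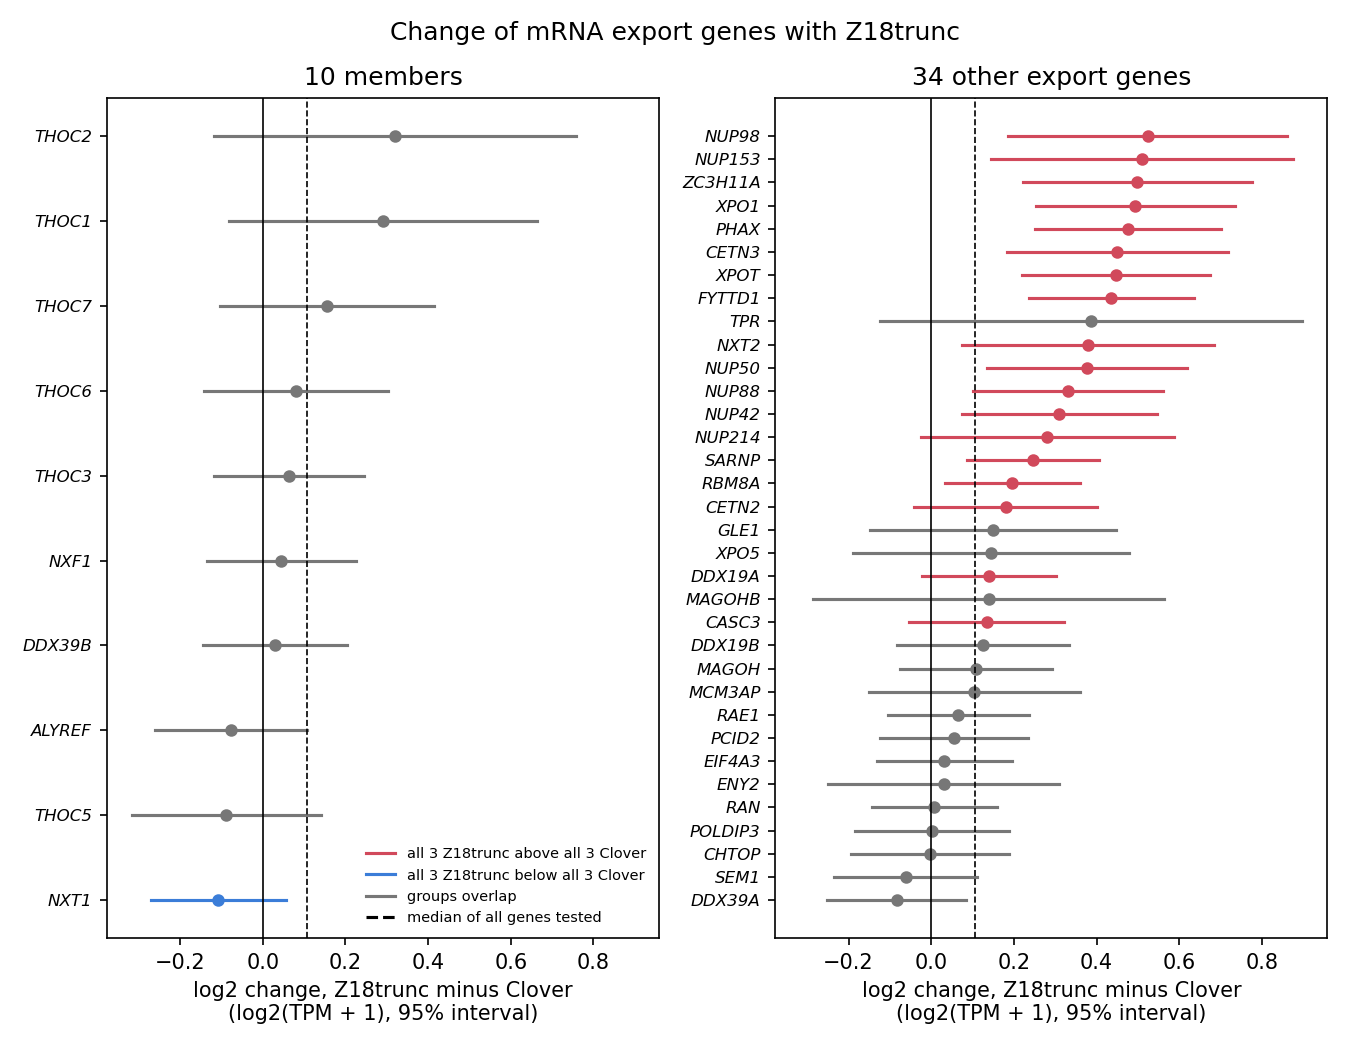
Difference in mean log2(TPM + 1), Z18trunc minus Clover, with 95% intervals from limma, for the 10 members (left) and 34 other tested export genes (right). Color gives whether the 3 libraries of one group all lay above or below those of the other, the solid line is 0 and the dashed line the median of all 13300 genes at 0.11. All 10 intervals of the members cross 0, and 14 of 34 intervals on the right do not, against 3790 of all 13300 genes tested.

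Because scaling between libraries can shift such small changes, ratios within a library were compared. The log2 ratio of NXF1 to NXT1 was -0.92, -0.96 and -0.83 in Clover and -0.86, -0.61 and -0.77 in Z18trunc, so the receptor was listed at 0.513 to 0.654 TPM for each TPM of its partner. The groups overlapped, and the difference of 0.15 did not pass an exact two-sided permutation test (p = 0.2, and 0.3 after Benjamini-Hochberg adjustment over the 2 ratios). DDX39B was set against DDX39A (URH49), its close paralogue that also serves in export. That log2 ratio was 0.98, 0.80 and 1.01 in Clover and 0.98, 1.03 and 1.13 in Z18trunc, and DDX39B was the more abundant of the pair in every library. The groups again overlapped, with a difference of 0.11 (exact two-sided permutation p = 0.3, adjusted 0.3). With 3 libraries against 3, the exact permutation test cannot go below p = 0.1. NXT2, the paralogue of NXT1, was far lower, at 5.18, 4.26 and 5.52 TPM in Clover and at 5.77, 6.81 and 7.83 TPM in Z18trunc. All 3 Z18trunc values lay above the controls, and the log2 change of 0.38 did not pass (limma adjusted p = 0.116).

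**Figure D3:**
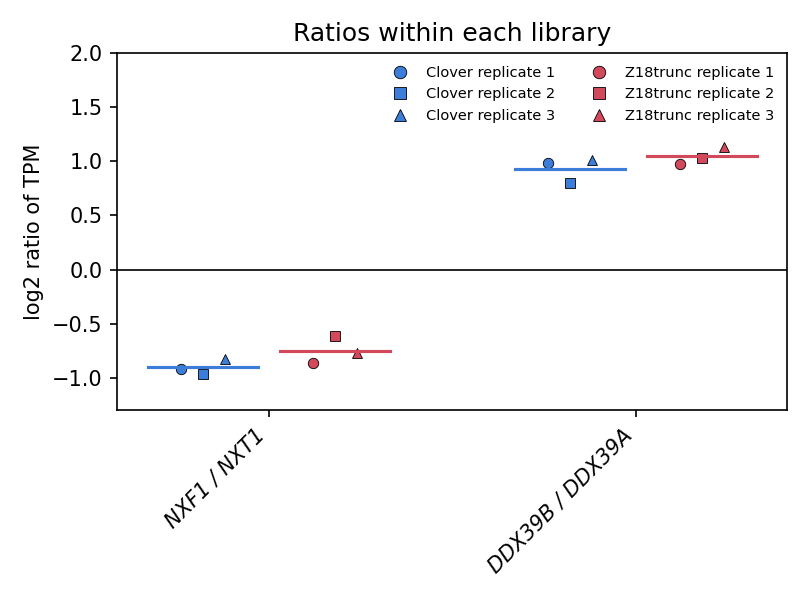
Log2 ratio of TPM within each library for NXF1 over NXT1 and for DDX39B over DDX39A. Points are libraries and bars are group means, which are -0.90 and -0.75 for the first ratio and 0.93 and 1.05 for the second. Clover and Z18trunc points overlap in both.

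The members were then set beside the rest of the export machinery, a list of 38 other genes of which 34 were tested, since LUZP4, NXF2, NXF3 and NXF5 were at or near 0. None of the 34 passed at an adjusted p of 0.05, with the smallest at 0.0773 (limma). At an unadjusted p under 0.05, 14 of the 34 had higher and 0 lower values, against 25.6% and 2.90% of all genes tested. After quantile normalization 11 of the 34 had higher and 0 lower values, against 12.8% and 10.9% of all genes tested. All 3 Z18trunc libraries were above all 3 Clover libraries for 18 of them and below for 0, against 30.1% and 6.73% of all genes tested. The median log2 change was 0.16, and 0.07 after quantile normalization, against 0.11 and -0.01 for all genes tested. By part of the machinery, an unadjusted limma p under 0.05 was reached by 3 of 6 TREX-associated genes and 1 of 6 of the TREX-2 complex. It was also reached by 1 of 5 of the exon junction complex and 5 of 11 genes of the nuclear pore and of mRNA release. Of exporters of other RNAs 3 of 5 reached it, as did NXT2, the 1 gene tested of the receptor family. The members and these genes were not tested against each other, and the list was chosen with earlier results of these data known. The 3 largest log2 changes were those of the nucleoporins NUP98 (0.52) and NUP153 (0.51) and of ZC3H11A (0.50), a TREX-associated zinc-finger protein. NUP98 was at 63.5, 45.3 and 64.0 TPM in Clover and at 85.8, 81.2 and 79.7 TPM in Z18trunc (limma adjusted p = 0.0865). The 3 smallest were those of DDX39A (-0.08), SEM1 of TREX-2 (-0.06) and the adaptor CHTOP (-0.0033), whose sign turned when single libraries were left out. When only genes with a mean of at least 5 TPM were tested, 4.75% of 9973 genes passed, and among them 4 of the 34 export genes, XPO1, PHAX, XPOT and FYTTD1 (limma adjusted p = 0.0486 each), and 0 of the 10 members. These 4 code for an exporter of proteins and several RNA classes, the adaptor for snRNA export, the tRNA exporter and a further mRNA export adaptor. XPO1 was between 64.5 and 77.6 TPM in Clover and between 95 and 111 TPM in Z18trunc. Summed, the 10 members stood at 1222 ± 9.88 TPM in Clover and 1226 ± 23 TPM in Z18trunc, a difference of 0.394%, and the 38 other genes at 2457 ± 59.7 and 2632 ± 25.2 TPM (SD, n = 3 each), a difference of 7.10%.

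RNA from the introns of the members gave a readout that mature mRNA does not. Uniquely mapped fragments of transposable element (TE) loci were summed by gene, for loci that lay wholly inside the span of 1 gene of a given strand, with no base in an annotated exon. Fragments were counted where they came from the strand of that gene, and the element itself could lie on either strand. Loci of 8 members held at least 30 counts over the 6 libraries and were tested. ALYREF and DDX39B had no locus with a count, so no level was set for them. None of the 8 passed in edgeR's quasi-likelihood test, against 0.140% of 7880 genes (11), and their median log2 change was 0.06 against 0.32 for all genes tested. With TMM scaling in place of aligned fragments these medians were -0.27 and -0.0027. Depth limits this readout, since 0 counts in a library leave room for as many as 3 counts, which is 0.134 to 0.165 CPM (counts divided by aligned fragments and multiplied by 1000000). This bound covers counting error alone.

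THOC1 had the smallest p of the members in introns as well. Its 47 loci held 39, 18 and 21 counts in Clover and 65, 30 and 33 in Z18trunc, or 1.74, 0.941 and 1.07 CPM and 2.89, 1.65 and 1.57 CPM. Clover replicate 1 lay above Z18trunc replicates 2 and 3, so the groups overlapped. The log2 change of THOC1 was 0.70 (SE 0.31, edgeR unadjusted p = 0.0251, adjusted p = 0.282), against a median of 0.32 for all genes tested. At an unadjusted p under 0.05 in this edgeR fit, 1091 of 7880 genes were higher and 22 lower. The log2 change of THOC1 was 0.35 without Z18trunc replicate 1, the library with the most counts, and 0.41 with TMM scaling (edgeR adjusted p = 0.669 and 0.880). Neighbouring loci near the 5′ end of the gene carried some of the difference, with most counts in Z18trunc replicate 1. A longer L1ME3Cz element at chr18:234682-236204 went the other way, with 2, 2 and 6 counts in Clover and 1, 0 and 5 in Z18trunc. An L3 element at chr18:261454-261690 held 2, 0 and 0 counts in Clover and 9, 2 and 5 in Z18trunc. A MER5A element at chr18:261790-261902 held 1, 1 and 1 counts and then 8, 3 and 1. Both are printed from hg38 on the minus strand, that of THOC1, because they are the neighbouring loci of at most 300 bases with the most counts in the gene. The L3 element is annotated on the plus strand, so its printed sequence is antisense to the element, and MER5A is annotated on the minus strand.
L3 in THOC1: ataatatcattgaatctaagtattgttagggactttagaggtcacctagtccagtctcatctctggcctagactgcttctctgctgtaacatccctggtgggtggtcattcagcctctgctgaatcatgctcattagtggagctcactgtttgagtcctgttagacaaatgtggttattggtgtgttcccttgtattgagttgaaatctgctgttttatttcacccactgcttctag
MER5A in THOC1: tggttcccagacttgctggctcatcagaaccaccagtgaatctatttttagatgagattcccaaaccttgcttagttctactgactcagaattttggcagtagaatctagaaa
With so few counts none of these loci was tested on its own.

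For the other members the intronic counts of the groups overlapped as well. THOC2 held 48, 28 and 31 counts in Clover and 35, 46 and 50 in Z18trunc (log2 change 0.30, edgeR adjusted p = 0.661), and 75 of its 238 counts came from an L1MB5 element at chrX:123611622-123612702. THOC5 held 54, 31 and 57 counts and then 51, 36 and 34 (log2 change -0.24, edgeR adjusted p = 0.730). An AluSx1 element at chr22:29543062-29543375 supplied 210 of its 263 counts, so that the intronic value of THOC5 is close to that of 1 locus. NXF1 held 8, 9 and 7 counts and then 9, 10 and 27, with Z18trunc replicate 3 alone above the rest. Its log2 change of 0.91 (edgeR adjusted p = 0.396) was 0.26 without that library. THOC3, THOC6, THOC7 and NXT1 held only 40, 36, 44 and 48 counts in all, with log2 changes of -0.14, -0.01, -0.41 and 0.13, none of them past the test (edgeR).

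**Figure D4:**
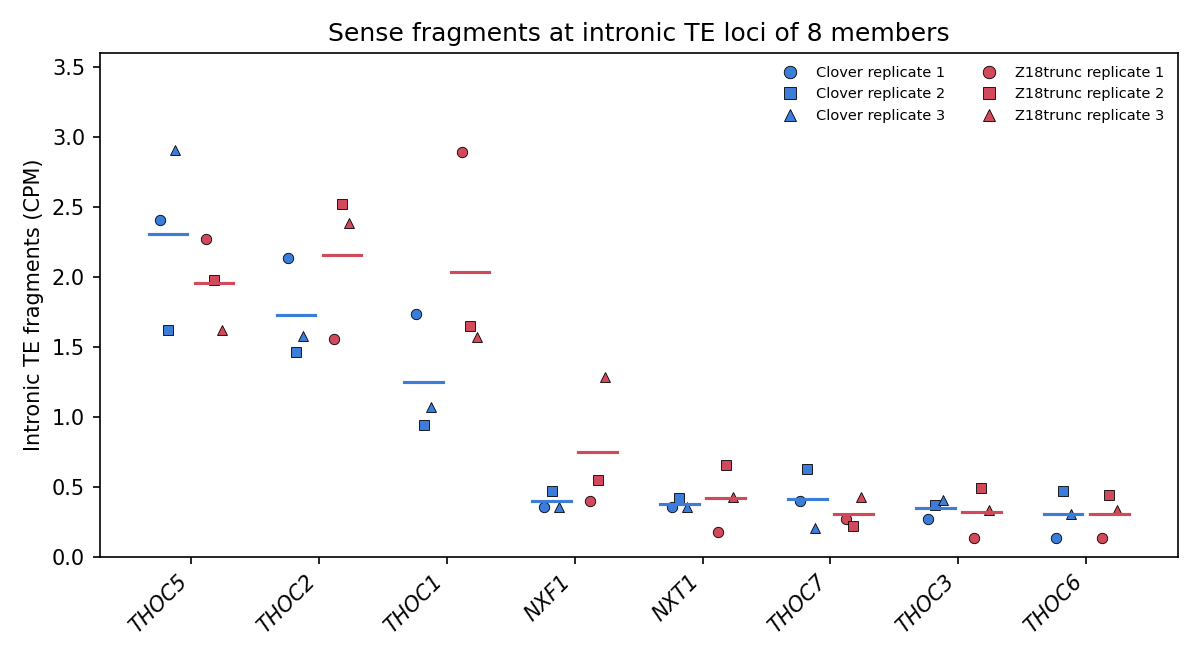
Sense-strand fragments at intronic TE loci of the 8 tested members, in CPM, ordered by total counts. Points are libraries and bars are group means, blue for Clover and red for Z18trunc. The groups overlap for all 8, and NXF1 has 1 high library, Z18trunc replicate 3.

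Z18trunc replicate 3 also stood out in the mean profile of the members, through a few of them. The mean over the 10 members of log2(TPM + 1), centred on each gene, was 0.12 in that library and between -0.05 and 0.01 in the other 5. THOC1, THOC2 and THOC7 had their highest value of the 6 libraries there, and THOC6 its lowest, at 41.4 TPM. The remaining members lay inside the range of the other 5 libraries, so the mean rests largely on THOC2 and THOC1. Among 9929 genes outside both lists with a mean of at least 5 TPM, SSB, RPAP3 and ZNF638 followed this profile most closely (Pearson r = 0.996 each). Each r is over 6 libraries that differ in group and depth. The profile is high in Z18trunc replicate 3, so a gene high there alone can also give a high r. SSB, which codes for the RNA-binding La protein, was at 111, 98.6 and 105 TPM in Clover and at 111, 115 and 160 TPM in Z18trunc, so that it too was highest in replicate 3. Opposite-strand genes overlap some members, USP14 for THOC1, BICDL2 and HCFC1R1 for THOC6, ATXN7 for THOC7 and ANAPC11 for ALYREF, and the strand setting behind the gene tables is not given in the sources used here, so a part of those levels cannot be told apart from the partner gene.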

How the data were processed

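Polyadenylated RNA from 3 Clover and 3 Z18trunc lines was sequenced as stranded pairs and mapped to hg38. Per the labels, cutadapt 4.6 was among the tools. The authors deposited TPM and FPKM per gene in the layout of StringTie, and TE tables with whole-number unique counts and estimated counts that share multiply mapped fragments. TPM was summed by symbol. The 7 DDX39B rows on alternate contigs were at 0. The limma 3.58.1 fit took log2(TPM + 1), a scale on which a fold understates the change of low genes. Unique counts of intronic TE loci (GENCODE 44 exons removed with bedtools 2.31.1) were tested with edgeR 4.0.16 in R 4.3.3, with aligned fragments as library size. The Benjamini-Hochberg adjustment ran over the whole set of tested genes. Ratios used exact permutation tests in scipy 1.17.1.

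Named were the 10 members, ZC3H18, DDX39A, NXT2, export genes that passed the test or had the 3 largest or smallest changes, and the 3 genes most like the profile of the members; KRT20 and the other marker genes served as checks. LOC728554 and ATP6V1G2-DDX39B were added since they share sequence with a member. The members and lists were chosen with earlier results of these data known. The fits were tested on simulated data. In the intronic counts, over 7876 to 7880 genes, pairs of libraries from one group differed by more than sampling (chi-square divided by its degrees of freedom, 1.81 to 2.00). Alternatives were quantile normalization, median centring, another pseudocount, other filters, FPKM, primary chromosomes, an intensity trend, a replicate block, TMM, DESeq2 1.42.0, estimated counts, the opposite strand and leaving out each library.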

Additional observations from a re-analysis of the deposited data

How the results depend on the processing

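None of the 10 members was called in any of 16 settings of the gene fit. Of 14 settings of the intronic fit, none called any of the 8 members tested there. With DESeq2 these 8 had no adjusted p, and on the opposite strand they were not tested. Those settings could therefore give no call for them. All genes called by limma numbered 2. They numbered 1 after quantile normalization, with a pseudocount of 0.1, without a filter and with a replicate block, 60 with an intensity trend, 474 among genes of at least 5 TPM (where 4 other export genes passed), and 1 to 4 when a library was left out (4 without Clover replicate 2, 1 without Z18trunc replicate 1). The unadjusted split of 3404 higher and 386 lower became 1708 and 1448 after quantile normalization, 1357 and 2460 after median centring, and 2674 and 1001 with FPKM. The median of all genes was then -0.01, -0.06 and 0.04.

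Of 150 alternative log2 changes of members, 11 reversed. With median centring THOC3 was at -0.10, THOC6 at -0.084, THOC7 at -0.0095, DDX39B at -0.13 and NXF1 at -0.12. With FPKM THOC3 was at -0.0036, DDX39B at -0.037 and NXF1 at -0.022, and with quantile normalization THOC6 was at -0.0044 and NXF1 at -0.023. Leaving out a library gave -0.015 to 0.062 for DDX39B and -0.040 to 0.051 for CHTOP.

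The intronic fit called 11 of 7880 genes, and 1 with TMM, 7 with DESeq2 and 4 with a replicate block. It called 17 of 8736 genes tested with estimated counts and 7 of only 789 tested on the opposite strand. When a library was left out it called 0 to 20. The count was 20 without Clover replicate 1, 1 without Clover replicate 2 and 6 without Clover replicate 3. It was 6 without Z18trunc replicate 1 and 7 without Z18trunc replicate 3. Without Z18trunc replicate 2 it was 0 by edgeR, with 791 higher and 21 lower genes at an unadjusted p under 0.05. DESeq2 was not run there. The unadjusted split of 1091 higher and 22 lower in the main intronic fit became 245 and 229 with TMM. Of 96 alternative values 12 reversed. With TMM THOC2 was at -0.020 and NXT1 at -0.19. With estimated counts THOC3 was at 0.43, THOC6 at 0.00047 and THOC7 at 0.085. The replicate block gave 0.0041 for THOC6. Leaving out a library gave -0.56 to 0.25 for THOC3, -0.38 to 0.45 for THOC6, -0.73 to 0.0044 for THOC7 and -0.32 to 0.51 for NXT1. The causes were not tested.

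Deviations of libraries with the same number correlated at -0.04, 0.02 and -0.04, and those with different numbers at -0.01 to 0.05. These values show no pairing by number, but with 3 libraries a group they cannot settle it. The block changed no call of a member. The ratios kept their direction, at 0.08 to 0.21 for NXF1 to NXT1 and 0.05 to 0.15 for DDX39B to DDX39A. Depth in introns limits what 36 to 263 counts a gene can show, and the gene tables give no counts.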
